A study of Mus musculus with 30 samples.

Results

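The 8 genes described here encode dystrophin, its homologue utrophin and proteins bound to them at the muscle membrane: Dmd, Utrn, Dag1, Sgca, Sgcb, Sgcd, Dtna and Sspn. They were taken by name from a table of 33076 mouse genes, and all 8 were present. Their levels were read in 30 RNA-seq libraries made from the diaphragms of 15 male mice. The animals model spinal and bulbar muscular atrophy (SBMA), an illness in which muscle weakens and motor neurons are lost. SBMA mice carried the transgene BACfxAR121, written BACfxR121 in the sample labels. Controls were HSA-Cre;BACfxAR121 littermates, which carry the same transgene together with Cre recombinase under HSA, the skeletal actin promoter active in skeletal muscle. The controls are therefore muscle-rescued transgenic animals, not wild type, and no animal without the transgene was analysed here. From each diaphragm a perisynaptic piece, where nerve meets muscle fibre, and an extrasynaptic piece, away from those junctions, were sequenced separately. The 26-week groups hold 4 SBMA and 4 control mice and the 15-week groups 4 and 3, each replicate being a separate mouse.

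Dystrophin is a long rod-shaped protein under the muscle membrane. It binds actin inside the fibre and, through beta-dystroglycan, a chain of proteins that reaches laminin in the matrix outside, so that force is passed across the membrane without tearing it. The sarcoglycans and sarcospan form a side complex in the membrane that steadies dystroglycan, and dystrobrevin and the syntrophins bind the tail of dystrophin and hold signalling enzymes there. Utrophin makes a like complex, and in adult muscle it is known for its concentration at the neuromuscular junction. Loss of dystrophin causes Duchenne muscular dystrophy, and loss of a sarcoglycan causes a limb-girdle muscular dystrophy.

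The stretches just upstream of the transcription start are shown for Dmd and Sgca, the members with the largest upward and downward difference between SBMA and control libraries, and for Utrn, the member known for its place at the junction. Each is 250 bases on the gene's strand, 5′ to 3′, ending at the base before a RefSeq start (GRCm38.p6). Capitals mark matches to 4 motifs of muscle promoters, searched on both strands: the E box CANNTG bound by myogenic factors, the N box TTCCGG bound by ETS factors at synaptic genes, the CArG box and the MEF2 site.
Dmd, chrX:82948620-82948869, plus strand: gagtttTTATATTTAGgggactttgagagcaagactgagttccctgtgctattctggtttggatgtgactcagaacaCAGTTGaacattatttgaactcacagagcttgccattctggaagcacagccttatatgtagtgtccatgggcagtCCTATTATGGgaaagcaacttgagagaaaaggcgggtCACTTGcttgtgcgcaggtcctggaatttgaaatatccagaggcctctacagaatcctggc
Utrn, chr10:12861736-12861985, minus strand: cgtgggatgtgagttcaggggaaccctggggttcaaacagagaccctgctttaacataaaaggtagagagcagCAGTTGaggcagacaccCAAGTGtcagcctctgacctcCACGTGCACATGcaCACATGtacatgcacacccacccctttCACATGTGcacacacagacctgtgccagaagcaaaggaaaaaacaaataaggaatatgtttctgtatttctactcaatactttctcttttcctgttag
Sgca, chr11:94976328-94976577, minus strand: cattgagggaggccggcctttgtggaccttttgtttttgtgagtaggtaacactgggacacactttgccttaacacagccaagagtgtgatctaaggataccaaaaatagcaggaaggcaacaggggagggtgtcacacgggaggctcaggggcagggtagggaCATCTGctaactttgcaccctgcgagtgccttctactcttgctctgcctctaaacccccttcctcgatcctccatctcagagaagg
The Dmd window holds a MEF2 site 244 bases before the start, E boxes 173 and 61 bases before it and a CArG box 98 bases before it. The Utrn window holds 7 E boxes, of which those 98 and 96 bases before the start overlap, and its start lies inside the annotated gene rather than at its end. Sgca has 1 E box, 86 bases before the start. Of 32841 RefSeq upstream windows of the same length, 66.2% held an E box, 12.0% an N box, 2.92% a MEF2 site and 1.47% a CArG box. None of the 10 windows listed for 7 of the members held an N box. The bases upstream of the annotated 5′ end of Utrn are not among these windows, so whether an N box lies there was not examined. Such matches describe the letters only.

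Total counts per library ranged from 16280873 to 34694446 (median 25411012.5). All 8 genes passed the filter on low counts in every fit, with 618 to 8937 reads per library for Dmd and 212 to 1550 for Sgcd, the least counted member. Levels are TMM-scaled CPM, that is, a gene's reads relative to the scaled total of its library. Tests are quasi-likelihood tests of edgeR, adjusted over all genes by the Benjamini-Hochberg method, a gene being called at an adjusted p under 0.05. Log2 differences are given ± SE, relative to the median gene. Percentages of all genes called are those of these main fits, and counts of members under other settings have no such share beside them. With total counts in place of TMM the median gene moved up in SBMA libraries by 0.24 on the log2 scale in perisynaptic muscle at 26 weeks, by 0.18 in extrasynaptic muscle at 26 weeks and by 0.19 in extrasynaptic muscle at 15 weeks. The transgene was not analysed here, so these counts check neither it nor the rescue. Markers of skeletal muscle fibres were high in every library, and of the markers of 10 tissue components that were read, Ncmap was at 0 in 1 library and Lep in 2, with no other at 0.

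At 26 weeks replicates 1 and 2 stood apart from replicates 3 and 4. The contrast was described by an index, the median log2 level of 1143 genes with 10 kb or more of exons minus that of 1026 genes under 2 kb, with the 8 members left out. Only protein-coding genes with a mean of at least 5 CPM entered it. Replicates 1 and 2 had indices of -0.39 and -0.33 in SBMA and -0.24 and -0.95 in control perisynaptic libraries, where replicates 3 and 4 had 0.20 and 0.20 in SBMA and 0.13 and 0.10 in control libraries. In extrasynaptic libraries of that age the 4 SBMA replicates had 0.22, 0.21, 0.30 and 0.21, and the 4 controls had -0.11, -0.43, 0.09 and 0.15. The low libraries are thus found in both genotypes near the junction but only among controls away from it. Exon length joins the exons of all annotated transcripts of a gene, so it can exceed the length of the transcript expressed in muscle. Genes of long exon length such as Dmd, with 23.8 kb, were low in the libraries with a low index. What sets the index was not tested, and results that rest on these libraries are given with and without them.

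Per kilobase of joined exons, Sgca and Dag1 were the most abundant members, with medians over the 30 libraries of 78.1 and 66.1 CPM per kb. The order depends on those lengths. Sspn followed at 46.9 and Sgcb at 33.0 CPM per kb. The long genes lay far lower, Dmd at 8.21, Dtna at 8.06, Utrn at 6.06 and Sgcd at 5.19 CPM per kb. Between neighbours in this order the ranges over libraries overlapped, except between Sgcb, whose lowest library was at 19.0 CPM per kb, and Dmd, whose highest was at 12.2. The members also differed in how much they varied. Dmd spanned 31.5 to 291 CPM, a 9.25-fold range, and Sgcd 10.8 to 50.5 CPM, a 4.68-fold range. Utrn and Sgca were the steadiest, at 79.3 to 132 CPM (1.66-fold) and 111.3 to 184 CPM (1.65-fold). In the panels of CPM by library, the lowest point of Dmd, of Dag1, of Sgcb, of Sgcd, of Dtna and of Sspn is in each case control perisynaptic replicate 2 at 26 weeks.

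**Figure D1:**
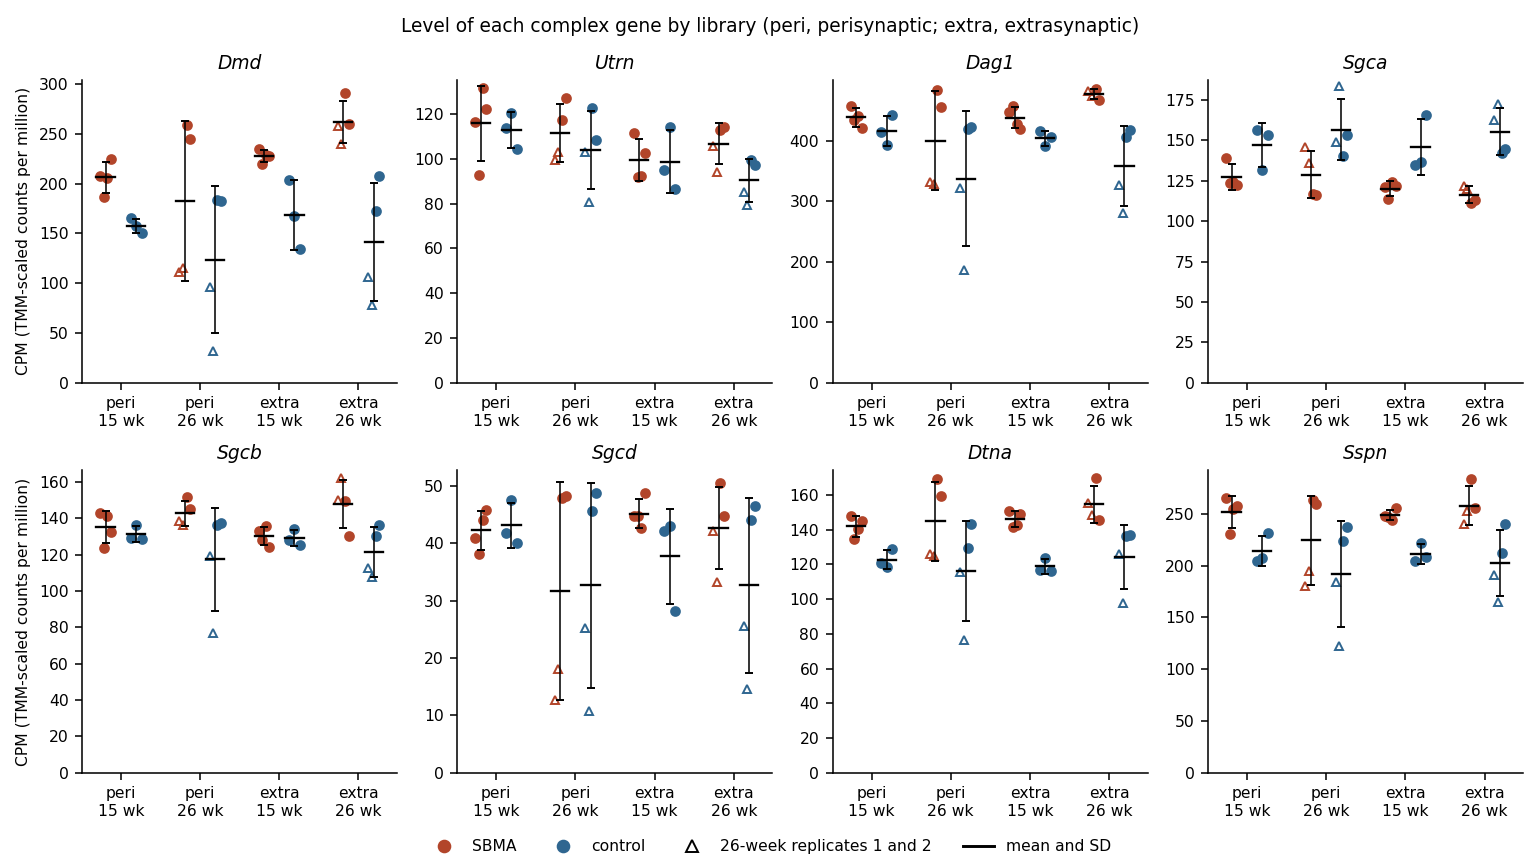
Level of each of the 8 genes in each library, in TMM-scaled CPM, by region and age, with SBMA (red) left of control (blue). Bars give the mean and SD of 3 or 4 animals, and open triangles mark 26-week replicates 1 and 2. In extrasynaptic muscle at 26 weeks the 4 SBMA points of Dmd lie between 239.8 and 291 CPM and the 4 control points between 78.1 and 207 CPM.

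The comparison sets SBMA muscle beside muscle of the rescued controls. By the genotypes given, the controls carry HSA-Cre and the SBMA mice do not. The transgene acting in muscle and the presence of Cre therefore cannot be told apart here. Away from the junctions at 26 weeks the complex was unevenly altered. Dmd rose 1.86-fold and the genes of dystroglycan, sarcospan, beta-sarcoglycan and alpha-dystrobrevin rose by smaller amounts, while Sgca, the gene of alpha-sarcoglycan, fell. Utrn and Sgcd did not pass the test. In all 6 of 8 members were called, 5 higher and 1 lower, where 32.2% of the 15526 genes tested were called, 16.1% higher and 16.1% lower. The median log2 difference was 0.33 over the members and -0.03 over all genes tested. For 4 of the 8 members the libraries of SBMA and control animals did not overlap. The share of all genes without overlap was not computed for this comparison. Of all genes 43.2% had an unadjusted p under 0.05 by edgeR here, and 7 of the 8 members did. In whole tissue, fewer cells of a type and less RNA per cell cannot be told apart.

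Dmd, the dystrophin gene (ENSMUSG00000045103.17, chrX:82948870-85206141, GRCm38), stood at 258, 239.8, 291 and 259.9 CPM in SBMA extrasynaptic libraries at 26 weeks, against 107, 78.1, 172 and 207 CPM in controls. The groups did not overlap, and the controls were spread widely, with replicates 1 and 2 below replicates 3 and 4. The log2 difference was 0.89 ± 0.22 (adjusted p = 0.00628). Utrn (ENSMUSG00000019820.11, chr10:12382188-12869365) measured 106, 94.2, 113 and 114.5 CPM in SBMA libraries, against 85.4, 79.3, 99.5 and 97.4 CPM in controls. These groups overlapped, and the log2 difference was 0.24 ± 0.10 (adjusted p = 0.0813).

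Dag1 (ENSMUSG00000039952.15, chr9:108204634-108263958) encodes dystroglycan, whose alpha part binds laminin outside the fibre and whose beta part binds dystrophin inside it. It measured 482, 474, 485 and 468 CPM in SBMA extrasynaptic libraries at 26 weeks, a spread of 1.62% about their mean, against 327, 281, 407 and 418 CPM in controls. All 4 SBMA libraries lay above all 4 controls, with a log2 difference of 0.41 ± 0.10 (adjusted p = 0.0051). Dtna (ENSMUSG00000024302.16), which encodes alpha-dystrobrevin on the inner face of the membrane, stood at 155, 148, 169.6 and 146 CPM in SBMA and at 126, 97.98, 136 and 137 CPM in controls. Again the groups did not overlap, and Dtna rose by 0.32 ± 0.09 (adjusted p = 0.0146). The annotation places an antisense gene over 90 bases of the Dtna exons and another over 69 bases of the Sspn exons. The strand setting of the counting is not given in the sources used here, and the 2 antisense genes hold 1458 and 44 reads over all libraries, against 101990 for Dtna and 171288 for Sspn.

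The sarcoglycan genes among the members, whose proteins work as one complex in muscle, did not move together in the main fit. Over the 30 libraries Pearson's r with the long-transcript index was -0.78 for Sgca, 0.79 for Sgcb and 0.90 for Sgcd. Sgca (ENSMUSG00000001508.15, chr11:94962791-94976327) measured 122, 120.0, 111.3 and 113 CPM in SBMA extrasynaptic libraries at 26 weeks, against 163, 172, 142 and 144 CPM in controls. Every SBMA library was below every control, and Sgca fell by 0.42 on the log2 scale (SE 0.08, adjusted p = 0.00112). Sgcb (ENSMUSG00000029156.11, chr5:73632749-73647790), the gene of beta-sarcoglycan, measured 150.0, 162, 149 and 130.5 CPM in SBMA and 113, 108, 130.3 and 136 CPM in controls. The groups overlapped through SBMA replicate 4, and Sgcb rose by 0.28 ± 0.08 (adjusted p = 0.0159). Sgcd (ENSMUSG00000020354.15, chr11:46896253-47988969), the gene of delta-sarcoglycan, measured 42.2, 33.2, 50.5 and 44.7 CPM in SBMA libraries, against 25.5, 14.5, 44.0 and 46.6 CPM in controls, and its log2 difference of 0.38 ± 0.26 did not pass (adjusted p = 0.283). Sspn (ENSMUSG00000030255.13, chr6:145931641-145965223) encodes sarcospan, a small membrane-spanning protein that sits with the sarcoglycans. It stood at 239.7, 252, 284 and 256 CPM in SBMA libraries and at 191, 165, 212 and 241 CPM in controls, and rose by 0.35 ± 0.09 (adjusted p = 0.00933). SBMA replicate 1 and control replicate 4 of Sspn overlapped narrowly.

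**Figure D2:**
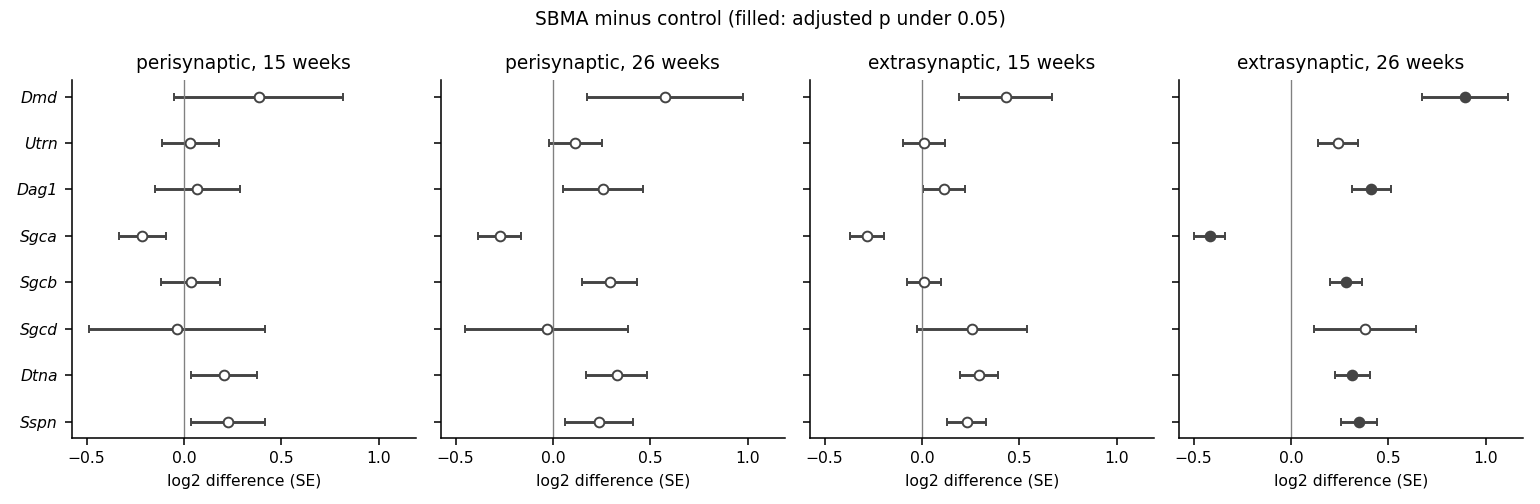
Log2 difference of SBMA minus control for each gene (points) with its standard error (bars), by region and age, from edgeR. Filled points had an adjusted p under 0.05, and they occur only in extrasynaptic muscle at 26 weeks, with Dmd at 0.89 and Sgca at -0.42.

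How firmly these calls stand differs by gene. With replicates 1 and 2 of both genotypes left out, Dmd (0.54, adjusted p = 0.0439) and Sgca (-0.35, adjusted p = 0.0376) were called in extrasynaptic muscle at 26 weeks and no other member was. Dag1 then measured 0.21 (adjusted p = 0.0811), Sspn 0.25 (0.0708), Dtna 0.21 (0.127) and Sgcb 0.07 (0.621). With replicates 3 and 4 left out instead, 7 members were called, Dmd at 1.43, Sgcd at 0.91 and Dag1 at 0.65 on the log2 scale, and Utrn at 0.28 was not (adjusted p = 0.151). With the long-transcript index as a covariate Sgca alone was called (-0.23, adjusted p = 0.0193), Dmd measured 0.32 (adjusted p = 0.053) and Sgcd, with its sign turned, -0.33 (adjusted p = 0.0624). With total-count scaling Utrn was called (0.46, adjusted p = 0.00101) and Sgca was not (-0.21, adjusted p = 0.0917). Utrn was also called with runs of consecutive animal numbers, which set replicates 1 and 2 apart from 3 and 4, as a term (0.24, adjusted p = 0.0449). With 1 animal left out at a time 5 or 6 members were called. Sgcb missed the threshold without control replicate 1 (0.25, adjusted p = 0.0527) or SBMA replicate 2 (0.24, adjusted p = 0.0572), and Dtna missed it without SBMA replicate 3 (0.27, adjusted p = 0.0514).

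**Figure D3:**
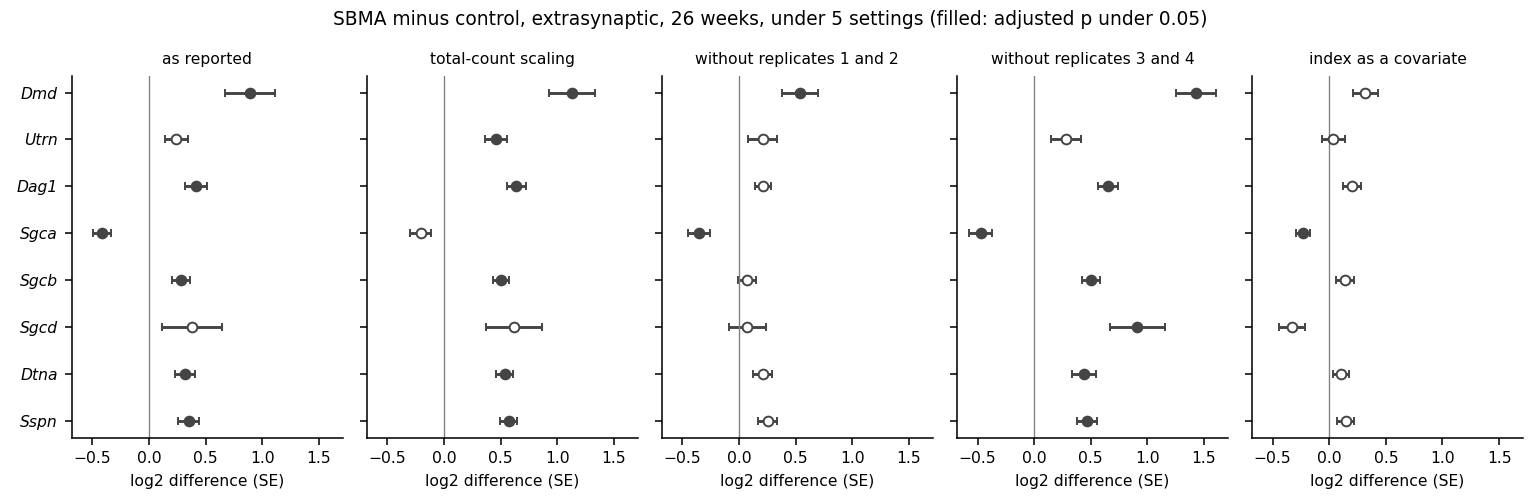
Log2 difference of SBMA minus control with its standard error in extrasynaptic muscle at 26 weeks, as reported and under 4 other settings, with filled points for an adjusted p under 0.05. Dmd is at 0.89 as reported, 0.54 without replicates 1 and 2, 1.43 without replicates 3 and 4 and 0.32 with the index as a covariate.

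Exon length, joined over all annotated transcripts of a gene, moved with this difference across other genes as well. The length classes below hold protein-coding genes with a mean of at least 5 CPM, the members left out. Their shares are therefore not of the same set of genes as the 16.1% over all genes tested. Of 323 genes tested with 15 kb or more of exons, as Dmd, Utrn and Dtna have, 32.5% were higher and 4.33% lower in extrasynaptic SBMA muscle at 26 weeks. Of 1025 genes with under 2 kb, as Sgca has, 10.9% were higher and 35.1% lower. Dmd, Utrn, Dtna and Sgca had the sign more frequent in their own length class, and the other 4 members fall in neither class. The part of length in these differences was not tested beyond the covariate above. The index averaged 0.23 ± 0.04 in SBMA libraries and -0.08 ± 0.26 in controls (SD, n = 4 each). In the plot of level against index, Dmd and Sgcd are lowest where the index is lowest and Sgca is highest there.

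**Figure D4:**
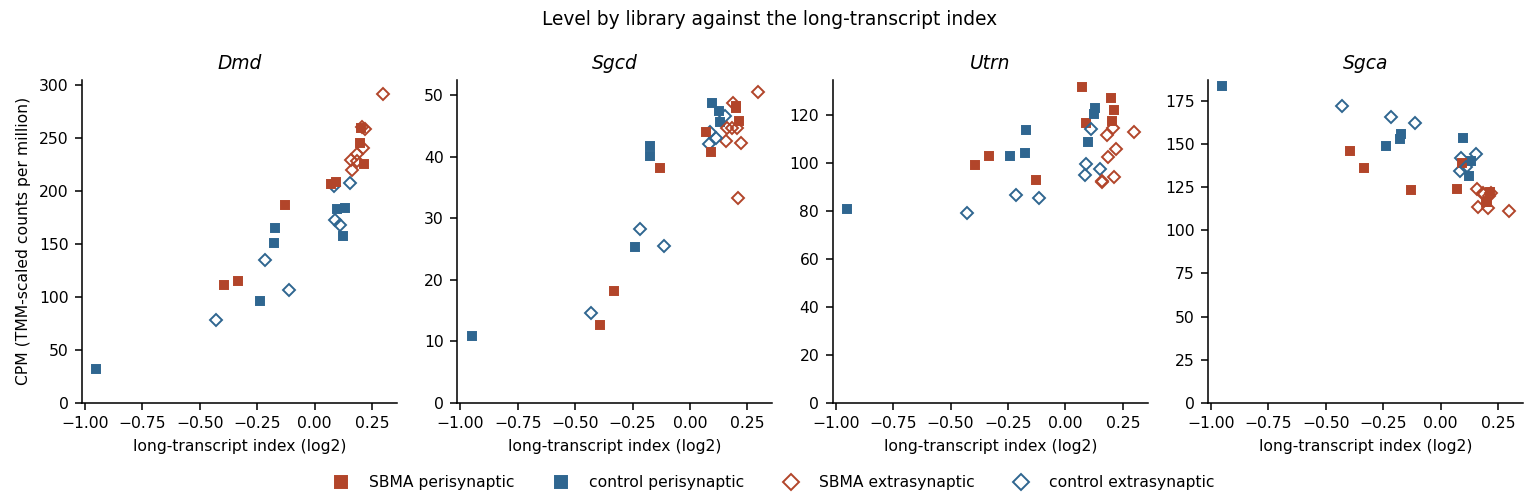
Level of Dmd, Sgcd, Utrn and Sgca in TMM-scaled CPM against the long-transcript index of the library (log2), for the 30 libraries. The control perisynaptic library with an index of -0.95 has the lowest Dmd, at 31.5 CPM, and the highest Sgca, at 184 CPM.

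Near the junctions at 26 weeks no member was called by edgeR, where 14% of the 15735 genes tested were, 8.04% higher and 5.97% lower. DESeq2 also called none, and 1 member, Sgca, had an unadjusted p under 0.05 by edgeR, where 28.7% of all genes did. Dmd measured 110.7, 114.8, 259 and 245 CPM in SBMA libraries and 95.997, 31.5, 184 and 183 CPM in controls, a log2 difference of 0.57 ± 0.40 (adjusted p = 0.373). In both genotypes replicates 1 and 2 were low and replicates 3 and 4 high. Sgca measured 146, 136, 116.6 and 116.5 CPM in SBMA libraries, against 149, 184, 141 and 154 CPM in controls (-0.27 ± 0.11, adjusted p = 0.116). Sgcd showed the same split between replicates, at 12.6, 18.1, 47.9 and 48.2 CPM in SBMA and 25.3, 10.8, 45.6 and 48.8 CPM in controls, with a log2 difference of -0.03 ± 0.42 (adjusted p = 0.973). Utrn averaged 111.8 ± 12.9 CPM in SBMA and 104 ± 17.4 CPM in controls (0.12 ± 0.14, adjusted p = 0.618). The other members measured 0.33 ± 0.16 for Dtna, 0.29 ± 0.14 for Sgcb, 0.26 ± 0.20 for Dag1 and 0.24 ± 0.18 for Sspn, with adjusted p between 0.184 and 0.44. The median was 0.25 over the members and -0.02 over all genes.

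This comparison also moved with the settings. Without replicates 1 and 2 Dmd was called in perisynaptic muscle at 26 weeks (0.47, adjusted p = 0.00898). With the index as a covariate Dmd (0.42, adjusted p = 0.0333), Dtna (0.24, adjusted p = 0.0268), Sgcb (0.24, adjusted p = 0.0372) and Sgca (-0.22, adjusted p = 0.0301) were called. With total-count scaling 5 members were called as higher, namely Dtna at 0.59, Sgcb at 0.56, Dag1 at 0.53, Sspn at 0.50 and Utrn at 0.38, against a median gene at 0.24. The share of all genes called is not given for these settings. The difference in this contrast between the regions was tested with a term for each animal, and no member passed (edgeR adjusted p of 1 for each, 0 with an unadjusted p under 0.05, 0 by DESeq2), where 0.0124% of 16138 genes did at 26 weeks and 0% at 15 weeks (421 with an unadjusted p under 0.05 and 5 by DESeq2). With no filter on low counts Sgcd passed at 26 weeks (-0.54, adjusted p = 0.0111). The calls away from the junctions are therefore not shown to be particular to that region.

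At 15 weeks no member was called in either region by edgeR or DESeq2, where 1.22% of genes were called in extrasynaptic and 0.21% in perisynaptic muscle. In extrasynaptic libraries 3 members, Sgca, Dtna and Sspn, had an unadjusted p under 0.05, where 14.4% of all genes did. Sgca measured 121, 113, 124 and 122 CPM in SBMA and 135, 137 and 166 CPM in controls, a log2 difference of -0.28 ± 0.09 (adjusted p = 0.136). Dtna measured 151, 142, 143 and 149 CPM in SBMA and 116.7, 124 and 116 CPM in controls (0.30 ± 0.10, adjusted p = 0.167). For both genes the groups did not overlap. Dmd, at 235, 219, 229 and 228 CPM in SBMA and 204, 168 and 134 CPM in controls, did not overlap either, and its difference of 0.43 ± 0.24 did not pass (adjusted p = 0.433). Sspn averaged 248 ± 4.86 CPM in SBMA and 211 ± 9.56 CPM in controls (SD, n = 4 and 3; 0.23 ± 0.10, adjusted p = 0.304), and Dag1 438 ± 17.6 CPM in SBMA and 404 ± 12.6 CPM in controls (0.11 ± 0.11, adjusted p = 0.67). For 5 of the 8 members the libraries of SBMA and control animals did not overlap at this age, where 15.8% of all genes tested did not. The long-transcript index did not overlap either, at 0.159 to 0.185 in SBMA and -0.216 to 0.112 in control libraries. Control replicate 3, with the lowest Dmd, had the index of -0.216. The part of the index in these differences was not tested beyond the covariate fit. Utrn was at 99.6 ± 9.33 CPM in SBMA and 98.8 ± 14.1 CPM in controls, Sgcb at 130.3 ± 5.05 CPM in SBMA and 129 ± 4.55 CPM in controls, and Sgcd at 45.2 ± 2.55 CPM in SBMA and 37.8 ± 8.31 CPM in controls. With total-count scaling Dtna (0.49), Sspn (0.42) and Dag1 (0.31) were called, against a median gene at 0.19.

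Perisynaptic libraries at 15 weeks gave no member with an unadjusted p under 0.05, where 7.11% of all genes had one. Dmd averaged 206 ± 15.6 CPM in SBMA and 158 ± 7.15 CPM in controls (SD, n = 4 and 3), with no overlap and a log2 difference of 0.38 ± 0.43 (adjusted p = 0.954). This fit shares its estimate of spread with the 26-week libraries. The long-transcript index ran from -0.129 to 0.213 in SBMA and from -0.175 to 0.125 in control perisynaptic libraries at 15 weeks. Dtna, the other member with no overlap (11.8% of all genes tested had none), averaged 142 ± 5.90 CPM in SBMA and 123 ± 5.48 CPM in controls. Sspn averaged 252 ± 15.3 CPM in SBMA and 214 ± 14.6 CPM in controls, and Sgca 127 ± 7.85 CPM in SBMA and 147 ± 13.4 CPM in controls. Utrn was at 116 ± 16.7 CPM in SBMA and 113 ± 8.13 CPM in controls. Dag1, Sgcb and Sgcd differed in log2 by 0.07, 0.03 and -0.04, each with an adjusted p above that of Dmd.

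Whether the contrast of SBMA with control grew with age was tested directly, and no member passed in either region by edgeR or DESeq2, where 1.73% of extrasynaptic and 0.375% of perisynaptic genes did. Away from the junctions the contrast at 26 weeks exceeded that at 15 weeks by 0.46 ± 0.32 for Dmd (adjusted p = 0.523), 0.30 ± 0.14 for Dag1 (adjusted p = 0.332) and 0.27 ± 0.12 for Sgcb (adjusted p = 0.284). Sgcb was the 1 member of 8 with an unadjusted p under 0.05, which is near the 15.7% of all genes that had one. Near the junctions the largest such difference was 0.26 ± 0.21 for Sgcb (adjusted p = 0.877), and 0 members had an unadjusted p under 0.05, where 8.28% of all genes did. With replicates 3 and 4 of the 26-week groups left out, Dmd (1.00, adjusted p = 0.0462), Dag1 (0.54, adjusted p = 0.0387) and Sgcb (0.49, adjusted p = 0.0387) passed in extrasynaptic muscle.

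Between 26 and 15 weeks no member was called within a genotype, in SBMA or in control muscle, by edgeR or DESeq2. The share of all genes called was 12.1% in SBMA extrasynaptic and 3.95% in SBMA perisynaptic muscle, and 0% in both regions of control animals, where 1036 extrasynaptic and 891 perisynaptic genes had an unadjusted p under 0.05 and DESeq2 called 51 and 40. In SBMA extrasynaptic libraries Dmd averaged 262 ± 21.3 CPM at 26 weeks and 228 ± 6.25 CPM at 15 weeks, with no overlap (0.20 ± 0.22, adjusted p = 0.586). Dag1 averaged 477 ± 7.74 CPM at 26 weeks and 438 ± 17.6 CPM at 15 weeks, again with no overlap (0.12 ± 0.10, adjusted p = 0.445). These were 2 of the 8 members, and 23.4% of all genes tested did not overlap between these groups. Sgcb, at 148 ± 13.1 CPM at 26 weeks and 130.3 ± 5.05 CPM at 15 weeks, was the 1 member of 8 with an unadjusted p under 0.05 (0.18 ± 0.08, adjusted p = 0.154). Of all genes 28.0% had one in that comparison. In a fit of the 2 groups alone Dmd passed (0.21, adjusted p = 0.0383), and with total-count scaling (0.27, adjusted p = 0.0168) or without 26-week replicates 3 and 4 (0.26, adjusted p = 0.0363) Sgcb passed. In control muscle the log2 differences of the members ran from -0.26 (Dmd) to 0.09 (Sgca) in extrasynaptic and from -0.40 (Sgcd) to 0.09 (Sgca) in perisynaptic libraries. In SBMA perisynaptic muscle they ran from -0.40 (Sgcd) to 0.09 (Sgcb), and Sgcd passed at -1.44 without replicates 3 and 4 (adjusted p = 0.0115).

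The 2 pieces of each diaphragm allow the junctional region to be set against the rest of the same muscle. Utrn was higher in the perisynaptic piece in 14 of 15 animals, with a median log2 difference of 0.15 (range -0.09 to 0.51), and Dmd was lower there in 13 of 15 animals (median -0.17, range -1.31 to 0.17), though its difference in controls at 15 weeks, -0.08 ± 0.22, was 0.02 with total-count scaling. No member was called in any of the 4 groups by edgeR or DESeq2, where between 0.948% (SBMA at 15 weeks) and 2.07% (SBMA at 26 weeks) of 16138 genes were, with 1.16% in controls at 15 weeks and 1.18% at 26 weeks. Utrn differed by 0.06 ± 0.07 in SBMA animals at 26 weeks (adjusted p = 0.644) and 0.21 ± 0.07 at 15 weeks (adjusted p = 0.419), and in controls by 0.19 ± 0.08 at 26 weeks (adjusted p = 0.292) and 0.20 ± 0.09 at 15 weeks (adjusted p = 0.562). For scale, of 9 junction genes 6 were higher near the junction in each SBMA group and 7 in each control group, with list medians of 1.74 to 2.08 on the log2 scale. Dmd measured -0.63 ± 0.19 in SBMA animals at 26 weeks (adjusted p = 0.0907), and Sgcd -0.60 ± 0.20 (adjusted p = 0.104). In that group Dmd stood at 110.7 and 114.8 CPM in the perisynaptic and 258 and 239.8 CPM in the extrasynaptic pieces of replicates 1 and 2, but at 259 and 245 CPM against 291 and 259.9 CPM in those of replicates 3 and 4. Of the 8 members 5 had an unadjusted p under 0.05 in SBMA animals at 26 weeks, where 23.8% of all genes did. In each of the other groups Utrn was the 1 member to do so, where 6.59% of all genes did in SBMA animals at 15 weeks, 14.1% in controls at 26 weeks and 7.92% in controls at 15 weeks, so that 1 of 8 is near the share of all genes in controls at 26 weeks.

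The regional difference at 26 weeks depended on the libraries that stand apart. With replicates 3 and 4 left out, Sgcd (-1.30, adjusted p = 0.000858), Dmd (-1.14, adjusted p = 0.00213), Dag1 (-0.53, adjusted p = 0.00523), Sspn (-0.39, adjusted p = 0.0138) and Dtna (-0.28, adjusted p = 0.0267) were called in SBMA animals. Without SBMA replicate 4 alone, Dmd (-0.81, adjusted p = 0.0285), Sgcd (-0.86, adjusted p = 0.0221) and Sspn (-0.30, adjusted p = 0.0469) were. With no filter on low counts Dmd (-0.63), Sgcd (-0.60) and Dag1 (-0.27) passed in SBMA animals and Dmd in controls (-0.37). Summed Schwann cell markers were at 190.3 ± 32.7 CPM in perisynaptic and 66.9 ± 6.63 CPM in extrasynaptic SBMA libraries at 26 weeks (SD, n = 4 each). Of these markers 7 of 8 were higher, where 2.07% of all genes were called, and their part in the differences of Utrn was not tested.

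**Figure D5:**
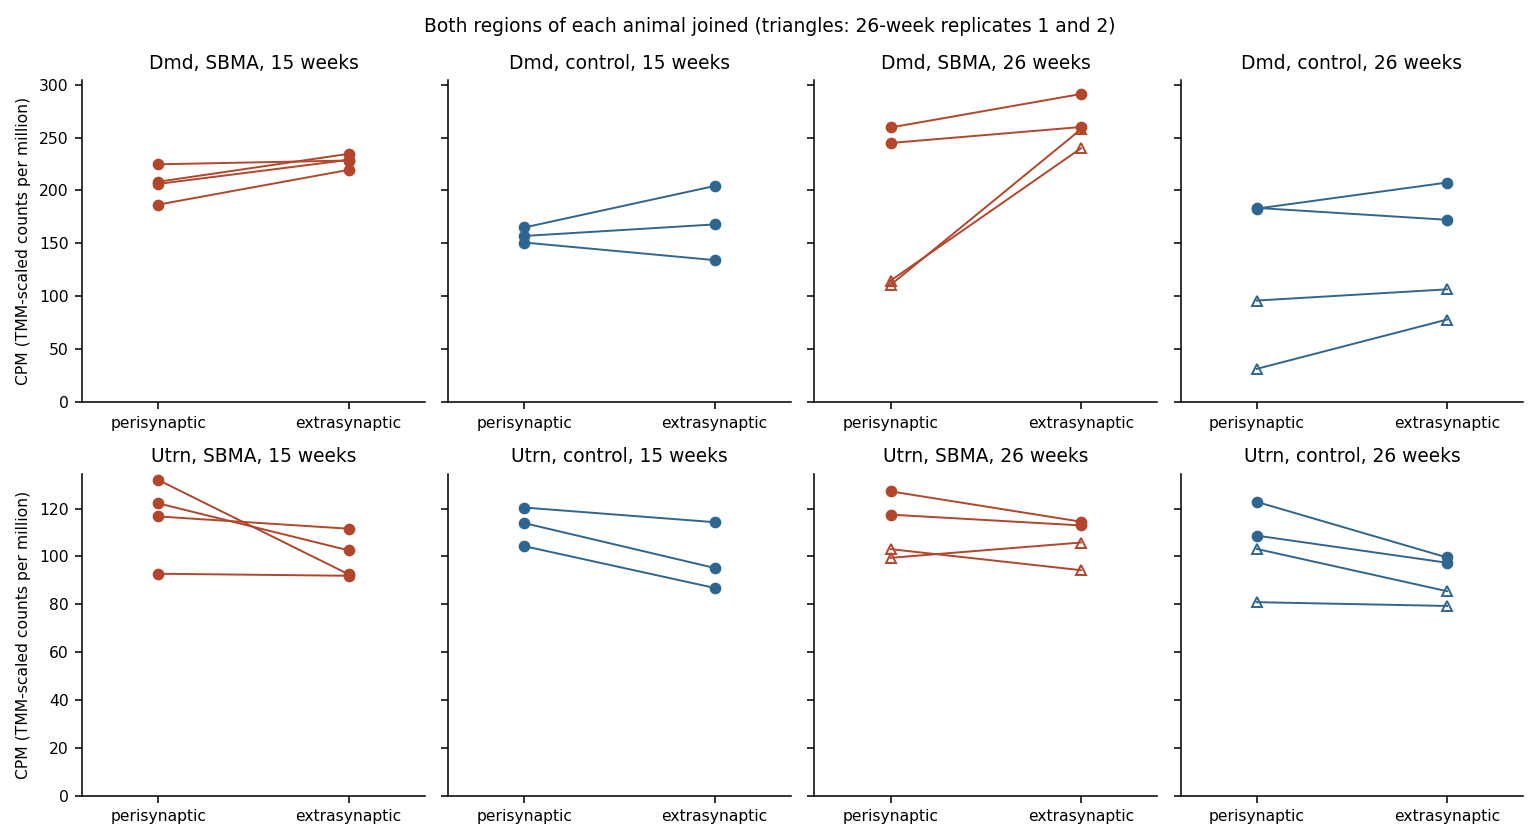
Level of Dmd (upper row) and Utrn (lower row) in TMM-scaled CPM in the perisynaptic and extrasynaptic piece of each animal, joined by a line, by genotype and age, with 26-week replicates 1 and 2 as open triangles. Utrn is higher in the perisynaptic piece of 14 of 15 animals, and the largest gaps in Dmd, in CPM, are those of SBMA replicates 1 and 2 at 26 weeks.

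The balance of utrophin to dystrophin transcripts, as the ratio of their CPM per kilobase of joined exons, is given as a description. The absolute size of this ratio depends on those lengths. In extrasynaptic muscle at 26 weeks it was 0.571, 0.547, 0.540 and 0.613 in SBMA animals and 1.12, 1.41, 0.804 and 0.653 in controls, with every SBMA value below every control. At 15 weeks it averaged 0.608 ± 0.0443 in SBMA and 0.832 ± 0.161 in control extrasynaptic libraries (SD, n = 4 and 3), where control replicate 1 at 0.648 lay within the SBMA range. In perisynaptic libraries at 26 weeks it averaged 0.963 ± 0.333 in SBMA animals and 1.71 ± 1.28 in controls, where control replicate 2 reached 3.57. At 15 weeks it averaged 0.780 ± 0.0828 in SBMA and 0.996 ± 0.0612 in control perisynaptic libraries, with no overlap. Without replicates 1 and 2 the mean difference in extrasynaptic muscle at 26 weeks was -0.152, and without replicates 3 and 4 it was -0.705. Over the 30 libraries Pearson's r with the long-transcript index was 0.95 for Dmd and 0.57 for Utrn. In extrasynaptic muscle at 26 weeks every SBMA index (0.206 to 0.297) lay above every control index (-0.430 to 0.153). The control perisynaptic library with the ratio of 3.57 had an index of -0.95. The part of the index in the ratio was not tested.

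Among 12 further genes of the complex, 11 were tested in extrasynaptic muscle, where 3 were higher and 3 lower in SBMA animals at 26 weeks, beside 16.1% of all genes in each direction. Drp2, a short dystrophin relative known from Schwann cells, rose by 1.10 ± 0.13 in extrasynaptic SBMA muscle at 26 weeks (adjusted p = 2.42e-05), to 15.5 ± 2.21 CPM in SBMA libraries, against 7.21 ± 0.91 CPM in controls. Schwann markers had no member called in that comparison, with summed levels of 66.9 ± 6.63 CPM in SBMA and 72.7 ± 5.61 CPM in controls. It was also higher in the perisynaptic piece in every group, by 0.72 to 1.28 on the log2 scale (adjusted p between 0.000127 and 0.0107). That call was lost in SBMA animals at 26 weeks without replicate 1 (adjusted p = 0.0577), without replicate 2 (0.0595) or with the index as a covariate (0.196), and in controls at 15 weeks without replicate 1 (0.138). Without both replicates 1 and 2 it was lost in SBMA animals (adjusted p = 0.296) and in controls (0.069) at 26 weeks. Sntb1, the gene of beta-1-syntrophin, rose by 0.74 ± 0.20 in extrasynaptic muscle at 26 weeks at levels of 5.02 ± 1.51 CPM in SBMA and 3.00 ± 0.44 CPM in controls (adjusted p = 0.00981), a call lost without replicates 3 and 4 (0.38, adjusted p = 0.208) and with the index as a covariate (0.70, adjusted p = 0.0774). Cav3, caveolin of the muscle membrane, fell by 0.34 (SE 0.09, adjusted p = 0.0118), which was lost without replicates 1 and 2 (-0.22, adjusted p = 0.188), with total-count scaling (-0.13, adjusted p = 0.358) and with the index as a covariate (-0.18, adjusted p = 0.235).

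Genes that act on dystroglycan or beside it were read as further lists, chosen like the members with earlier results of these data known. Their counts at 26 weeks in the main fits stand beside 16.1% higher and 16.1% lower among all genes in extrasynaptic and 8.04% higher and 5.97% lower in perisynaptic muscle. These shares do not hold for other settings. Of 17 genes that glycosylate dystroglycan, so that it can bind laminin, 3 were higher and 1 lower in extrasynaptic and 3 were higher in perisynaptic SBMA muscle at 26 weeks. In extrasynaptic muscle the 3 higher genes are near the share of all genes. The list medians were 0.08 and 0.13. With total-count scaling, under which the median gene also moved up in SBMA libraries, 12 genes were higher in each region. Without replicates 1 and 2, 1 was higher in each. Pomgnt1, a glycosyltransferase of the Golgi, rose by 0.43 ± 0.06 in extrasynaptic (adjusted p = 6.6e-05) and 0.50 ± 0.10 in perisynaptic muscle (adjusted p = 0.00238). Of 8 matrix ligands tested, 1 was higher and 2 lower in extrasynaptic and 1 lower in perisynaptic muscle. Lama2, the laminin chain of adult muscle, rose by 0.58 ± 0.15 in extrasynaptic muscle (adjusted p = 0.00918), Egflam, which encodes pikachurin, fell by 0.66 (SE 0.12, adjusted p = 0.000961) and Agrn, agrin, fell by 0.34 (SE 0.08, adjusted p = 0.00704). None of these 3 passed without replicates 1 and 2, at 0.47, -0.36 and -0.26 (adjusted p between 0.0769 and 0.203), and Agrn did not pass with total-count scaling (-0.13, adjusted p = 0.365). With the index as a covariate Lama2 (0.27, adjusted p = 0.27) and Agrn (-0.23, adjusted p = 0.114) did not pass.

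The integrin and costamere list, an attachment system parallel to dystrophin, had 8 of 18 genes higher and 2 lower in extrasynaptic and 4 higher in perisynaptic SBMA muscle at 26 weeks, with medians of 0.15 and 0.14. With total-count scaling 13 were higher and 0 lower in extrasynaptic and 9 were higher in perisynaptic muscle. Under that scaling the median gene itself moved up in SBMA libraries. Without replicates 1 and 2 there were 4 higher and 1 lower in extrasynaptic and 3 higher and 1 lower in perisynaptic muscle. The share of all genes called is not given for these 2 settings. Lims1, an adaptor of integrin-linked kinase, rose by 1.12 ± 0.10 in extrasynaptic muscle (adjusted p = 1.21e-06) and by 0.93 ± 0.17 in perisynaptic muscle (adjusted p = 0.00174). At 15 weeks it rose by 0.54 ± 0.11 in extrasynaptic muscle (adjusted p = 0.0189), a call lost without control replicate 1 (0.50, adjusted p = 0.0729), control replicate 3 (0.50, adjusted p = 0.107), SBMA replicate 3 (0.55, adjusted p = 0.0513) or SBMA replicate 4 (0.51, adjusted p = 0.0629). Tln1, the talin that links integrins to actin, rose by 0.54 ± 0.07 in extrasynaptic (adjusted p = 6.92e-05) and 0.47 ± 0.10 in perisynaptic muscle (adjusted p = 0.00569). In extrasynaptic muscle Vcl, vinculin, rose by 0.57 ± 0.10 and Flnc, filamin C, by 0.68 ± 0.13 (adjusted p = 0.000587 and 0.00114). These 4 genes passed in extrasynaptic muscle with either pair of replicates left out and with the index as a covariate. Of 9 membrane repair genes tested there, 3 were lower, among them Anxa1, an annexin, by -0.42 ± 0.11 (adjusted p = 0.00749). None of those 3 passed without replicates 1 and 2 (Anxa1 at -0.39, adjusted p = 0.157) or with total-count scaling, under which 3 others of the list were higher.

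Markers of tissue components also moved with genotype at 26 weeks. Counts of markers called stand beside 16.1% of all genes higher and 16.1% lower in extrasynaptic muscle at that age. In perisynaptic muscle the shares were 8.04% higher and 5.97% lower, and in extrasynaptic muscle at 15 weeks 1.22% were called in either direction. Summed muscle fibre markers were at 54924 ± 3539 CPM in SBMA and 107858 ± 6010 CPM in control extrasynaptic libraries (SD, n = 4 each), and 7 of 9 were lower and 1 higher in each region. At 15 weeks they were at 77223 ± 4904 CPM in SBMA and 115505 ± 6795 CPM in control extrasynaptic libraries, with 3 of 9 lower. Junction genes summed to 278 ± 25.8 CPM in SBMA and 124 ± 16.1 CPM in control extrasynaptic libraries, with 4 of 9 higher and 1 lower. In extrasynaptic muscle satellite cell markers were higher for 3 of 4 genes, while 5 of 7 macrophage, 4 of 10 endothelial, 3 of 7 fibroadipogenic, 2 of 7 mural and 3 of 4 mesothelial markers were lower and none of 5 adipocyte markers was called. The endothelial markers, from cells that also make utrophin, summed to 495 ± 31.7 CPM in SBMA and 613 ± 114 CPM in controls. The part of these shifts in the levels of the 8 genes was not tested.

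The genes whose levels followed Dmd and Utrn most closely over the 30 libraries were found by Pearson's r of log2 CPM, the members left out. They share libraries, depth and the split of the 26-week replicates, and 2 libraries come from each animal, so r is a description. For Dmd they were Ckap5 (0.99), a microtubule-binding protein gene, Gsk3b, a kinase gene, and Usp25, Usp9x and Snx13 (0.98 each). For Utrn they were Fat1 (0.90), an atypical cadherin gene, Aplp2 (0.83), Hip1 (0.82), Wwc2 (0.81) and Sbf2 (0.80). Between members r with Dmd was 0.97 for Dag1, 0.96 for Sspn, 0.92 for Dtna and 0.87 for Sgcd, but 0.57 for Utrn and -0.83 for Sgca.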

How the data were processed

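Whole-diaphragm pieces were profiled by stranded mRNA sequencing, per the labels' protocols, and the authors deposited raw read counts per gene, made with featureCounts on mm10 per the submitters' processing notes. The strand setting, like the aligner and the annotation release, is not given in the sources used here. Gene IDs were paired with symbols through GENCODE vM21 (33064 of 33076 matched, and the other 12 hold 0.00171% of reads). From the deposited counts, edgeR 4.0.16 (R 4.3.3) fitted the perisynaptic and extrasynaptic libraries separately with a mean per group, after its default filter (minimum count 10, minimum total 15) and TMM scaling. Regions were compared in one fit of all 30 libraries with a term for each animal, taken from the library names. The pieces of one animal deviated together, with r between 0.0900 and 0.615. Tests were two-sided quasi-likelihood tests with Benjamini-Hochberg adjustment, and the SE is the log2 difference divided by the square root of F. Alternatives were DESeq2 1.42.0, RLE and total-count scaling, no filter, a replicate block, runs of animal numbers as a term, fits of the compared groups alone, and each animal left out. Leaving out 26-week animals and the long-transcript covariate were added after seeing the data. The fits were tested on simulated data. Named genes are the 8 members, up to 4 called genes of smallest p from each pathway list, and the 5 genes most correlated with Dmd and with Utrn. Members and lists were chosen with earlier results of these data known. Some results for genes outside the 8 are not reported here.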

Additional observations from a re-analysis of the deposited data

Results flagged for a closer look

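Sgca in SBMA perisynaptic muscle at 15 weeks had 1 library far from the others of its group. Replicate 1 stood at 139 CPM and the other 3 replicates between 123 and 124 CPM, so that its gap to the nearest was 0.913 of the whole range, above Dixon's 95% critical value for 4 samples. Of 48 groups of 4 libraries examined this was the 1 so marked, and chance marks about 1 in 20 groups.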

How the results depend on the processing

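Counts of members are given here without the share of all genes called under each setting. In extrasynaptic muscle at 26 weeks 6 members were called, and 5 to 6 with 1 animal left out. This count was 2 without replicates 1 and 2 of both genotypes and 1 with the long-transcript index as a covariate, and 7, Utrn among them, with the runs of animal numbers as a term. In perisynaptic muscle at 26 weeks, where none was called, total-count scaling gave 5, the runs of animal numbers as a term 2 (Sgca at -0.28, Dtna at 0.34), leaving out replicates 1 and 2 gave 1, and the index as a covariate 4. In extrasynaptic muscle at 15 weeks total-count scaling gave 3. Between 26 and 15 weeks in SBMA extrasynaptic muscle, total-count scaling, a fit of the groups alone and leaving out replicates 3 and 4 gave 1 each, and in SBMA perisynaptic muscle the last gave 1. For the change of the genotype contrast with age in extrasynaptic muscle it gave 3. Between regions in SBMA animals at 26 weeks, no filter gave 3, leaving out replicates 3 and 4 gave 5, and leaving out 1 animal gave 0 to 3. In controls at 26 weeks no filter gave 1 (Dmd at -0.37), and for the region difference by genotype at 26 weeks it gave 1 (Sgcd at -0.54, adjusted p = 0.0111). The cause was not tested. No called value of a member changed sign under any alternative. The replicate block, for numbers that the labels do not give as pairs, gave 6 members in extrasynaptic muscle at 26 weeks (Dmd at 0.94). It changed no other count of members, nor did leaving out the animal term. Under the block Lims1 in extrasynaptic muscle at 15 weeks was not called (0.51, adjusted p = 0.0579). Deviations of SBMA and control libraries of the same number had r of 0.0528 to 0.398 in perisynaptic muscle at 26 weeks. They had 0.00467 to 0.175 in extrasynaptic muscle at that age, and -0.222 to 0.0154 at 15 weeks. DESeq2 and RLE scaling changed no count of members. Sgcd, with as few as 212 reads in a library, is the least precisely counted member.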
